A study of Homo sapiens with 8 samples.

Results

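The NAD biosynthesis enzymes considered here are the 10 human genes NAMPT, NMRK1, NMNAT1, NMNAT2, NMNAT3, NAPRT, NADSYN1, QPRT, NADK and NADK2. They were chosen by name for their place in the pathway, as the rows of the count tables whose transcripts belong to these genes. They are 10 of the 20165 rows of each table, and 10 of 10 passed the filter on low counts that left 14024 genes to test. RNA-seq was performed in OVCAR3 cells, an established line of high-grade serous ovarian carcinoma, in 4 groups of 2 libraries. For the siControl and siTARG1 groups, an siRNA with a control sequence or one against TARG1 was given at 30 nM, and cells were collected after 48 h. TARG1, the product of OARD1, removes ADP-ribose from acidic residues of proteins. The other 2 groups were lentivirally transduced and drug-selected lines, in which 1 µg/ml doxycycline (Dox) for 48 h induced both an shRNA against endogenous RACK1, a protein of the small ribosomal subunit, and an HA-tagged RACK1 cDNA. That cDNA was wild type in RACK1-WT cells and carried substitutions at the ADP-ribosylated residues in RACK1-Mut cells. Dox, the shRNA and both vectors were therefore common to RACK1-WT and RACK1-Mut, and absent from both siRNA groups as far as the sources used here state. The labels do not say which of the study's TARG1 siRNAs was used, nor whether replicates were separate cultures. The paper states in general that its sequencing experiments used independent biological samples, at least 2 times. The p-values measure the spread between these libraries. For each gene that spread was pooled over the 4 groups and drawn towards a trend over all genes. It is thus not the spread of the gene's own libraries alone.

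NAD carries electrons in metabolism and is also the substrate that ADP-ribosyltransferases and sirtuins consume. Cells rebuild it by salvage from nicotinamide (NAMPT) or nicotinamide riboside (NMRK1), by the Preiss-Handler route from nicotinic acid (NAPRT, then NADSYN1), or de novo from tryptophan (QPRT). All routes pass through an NMNAT enzyme, which joins the mononucleotide to an adenylyl group, and NADK in the cytosol and NADK2 in mitochondria then phosphorylate NAD to NADP.

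The libraries held between 30989049 and 42668783 exon counts. As a check of the labels, OARD1 was at 48.5 and 52.0 CPM (counts scaled to library sizes normalised by TMM) in siControl and at 3.11 and 3.98 CPM in siTARG1, a log2 change of -3.83 (SE 0.12, edgeR adjusted p = 1.2e-10). RACK1 was at 4241 to 4664 CPM in the siRNA libraries, at 1762 and 1898 CPM in RACK1-WT and at 1397 and 1454 CPM in RACK1-Mut. In the RACK1 libraries the count joins what is left of the endogenous mRNA and the cDNA. Both RACK1-Mut libraries were thus lower in RACK1 RNA than both RACK1-WT libraries, and the part of this in the results below was not tested. Of 10 markers of OVCAR3 cells, 10 were above 1 CPM on average in every group. Their summed level was 2484 to 2600 CPM in siTARG1 and 3901 to 4128 CPM in the other groups. Of 8 markers of blood, endothelium, fibroblasts and liver, 7 had a row and together reached at most 6.42 CPM. Among these, the T-cell gene CD3E was at 0 counts in all libraries. The endothelial gene VWF was highest, at 2.70 to 4.21 CPM, and the fibroblast gene COL1A2 was at 1.34 to 1.81 CPM in the siRNA libraries. The lower sum of the OVCAR3 markers in siTARG1 lay mostly in the keratins KRT8 (1195 and 1130 CPM in siControl, 554 and 544 CPM in siTARG1) and KRT18 (1323 and 1260 CPM, 505 and 535 CPM). WT1 and MUC16 were also called lower by edgeR, KRT7 and FOLR1 were called higher, and PAX8, MSLN, EPCAM and WFDC2 did not pass. Similar sums in siControl and the RACK1 groups hid differences of single markers in both directions, which were not tested. Mean CPM in siControl and RACK1-WT was 22.4 and 168 for MSLN, 159 and 552 for KRT7 and 7.80 and 30.3 for FOLR1. It was 453 and 177 for MUC16 and 1291 and 985 for KRT18. The part of these marker changes in the results below was not tested, and in bulk RNA fewer cells of a kind and less RNA per cell cannot be told apart.

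In siTARG1 cells the RNA of the enzyme that starts nicotinamide salvage, NAMPT, and of both NAD kinases, NADK and NADK2, was higher than in siControl cells, by 1.31- to 1.61-fold. NMNAT2 and NMNAT3, which were scarce in these cells, also rose, and NAPRT fell. NMNAT1, NADSYN1, QPRT and NMRK1 did not pass the threshold. In all, 5 of the 10 enzymes were called higher and 1 lower at an adjusted p under 0.05, beside 46.6% of all genes tested that were called in either direction (23.5% higher and 23.1% lower). Libraries of siControl and siTARG1 did not overlap for 8 of the 10, beside 70.0% of all genes, and 4 of the 10 were called with a change over 1.5-fold, beside 19.2%. An unadjusted p under 0.05 was reached by 7 of the 10, beside 52.8%. The median log2 fold change of the 10 was 0.18, beside 0.01 over all genes. With calls this common among all genes, the counts do not set the 10 enzymes apart from other genes, and the results are those of the single enzymes. In RACK1-Mut against RACK1-WT, 0 of the 10 were called, beside 0.00713% of all genes.

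**Figure D1:**
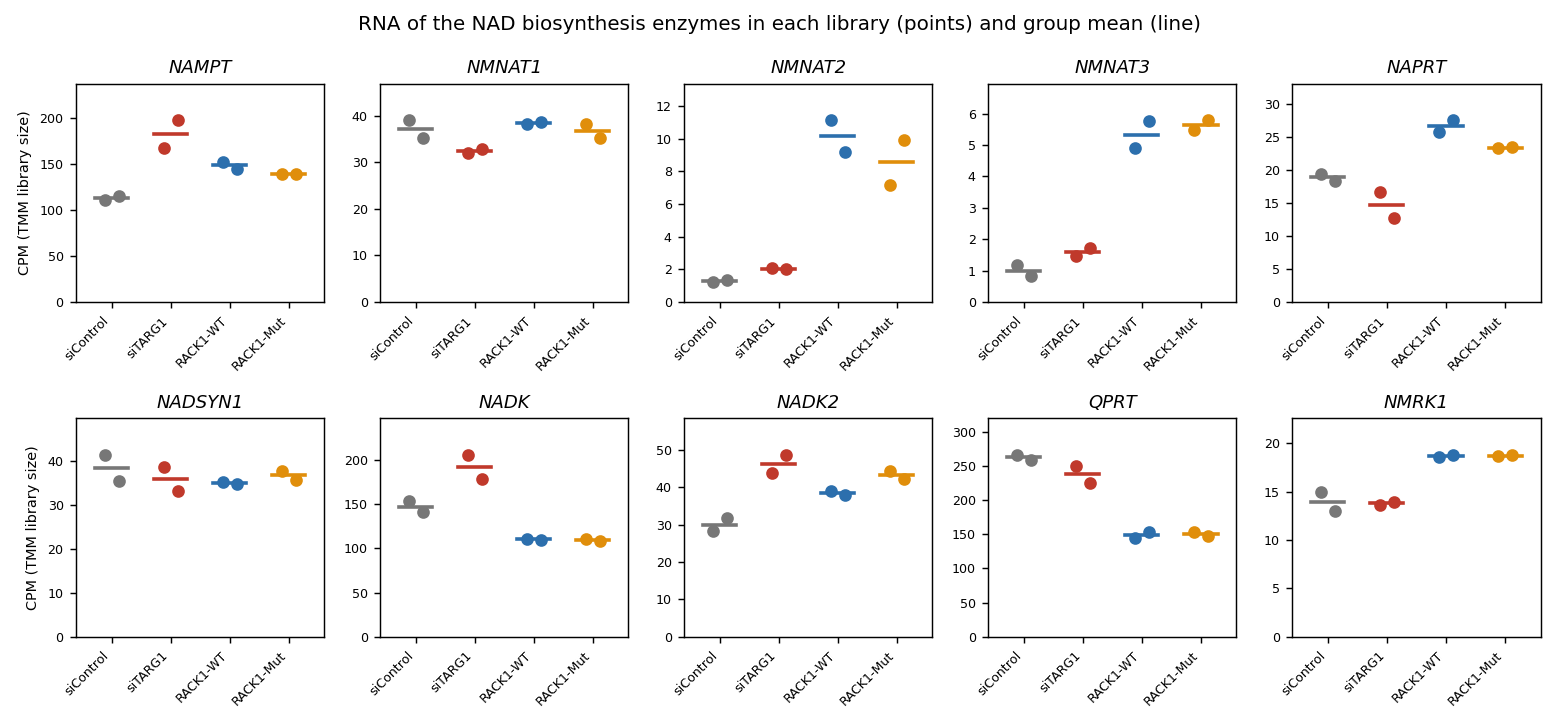
Each panel shows 1 enzyme, with CPM on the y axis starting at 0, the 4 groups on the x axis, a point for each of the 2 libraries of a group and a line at their mean. NAMPT was higher in both siTARG1 libraries (167 and 198 CPM) than in the other 6, whereas NMNAT2 and NMNAT3 were higher in all 4 RACK1 libraries than in all 4 siRNA libraries.

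**Figure D2:**
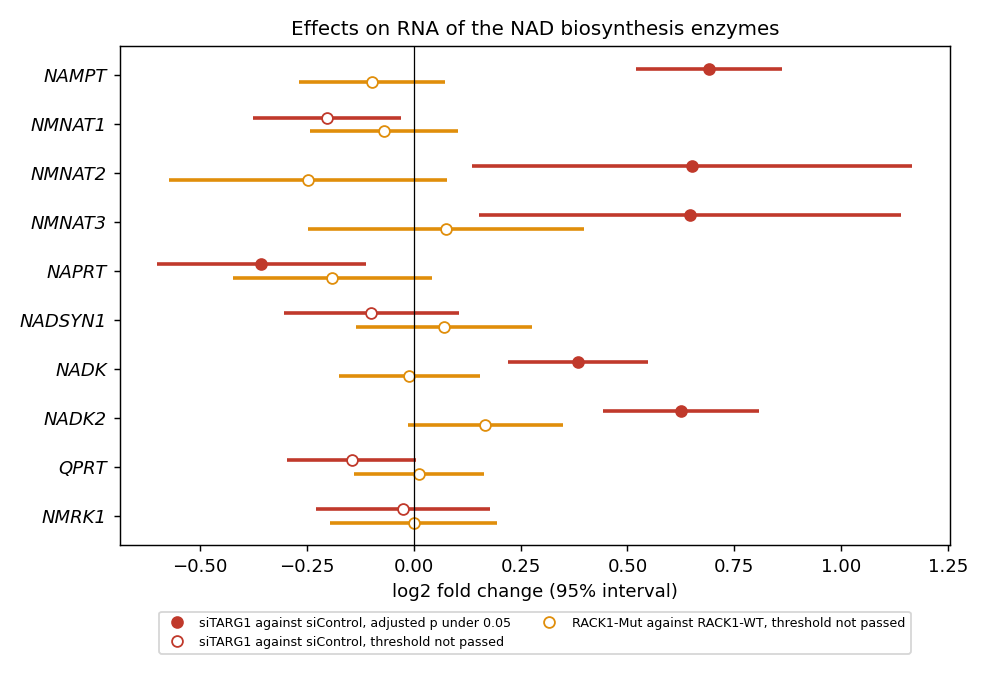
Points are log2 fold changes of the 10 enzymes and lines their 95% intervals, for siTARG1 against siControl (red) and RACK1-Mut against RACK1-WT (orange), with filled points where the adjusted p was under 0.05. The 6 filled points all belong to siTARG1 against siControl, and the RACK1-Mut points lie between -0.25 and 0.17.

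NAMPT, nicotinamide phosphoribosyltransferase, makes nicotinamide mononucleotide and is held to be the rate-limiting enzyme of salvage. It is encoded at chr7:105888744-105926412 (GRCh37, minus strand), and the tables counted 4582 exon bases, of which 1476 were coding and 2798 in the 3′ untranslated region (UTR). NAMPT was at 111 and 115 CPM in siControl and at 167 and 198 CPM in siTARG1, from 3509 to 8261 counts. The siTARG1 libraries were both above the siControl libraries and differed more from each other than the siControl libraries did. The log2 fold change was 0.69 (SE 0.08, 95% interval 0.52 to 0.86, edgeR adjusted p = 8.7e-06). This call was kept in 14 of 14 alternatives, with log2 values from 0.55 to 0.81. NAMPT has 3 processed pseudogenes (NAMPTP1 to NAMPTP3), and the alignment kept reads with several matches, so a part of its counts could stem from those copies.

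NMRK1, nicotinamide riboside kinase 1, makes the same mononucleotide from nicotinamide riboside. It was at 14.9 and 13.0 CPM in siControl and at 13.7 and 13.9 CPM in siTARG1. The siTARG1 values lay between the siControl values, and the log2 fold change of -0.02 had a 95% interval of -0.23 to 0.18 (edgeR adjusted p = 0.85). A rise as large as the log2 value of 0.69 of NAMPT lies outside that interval.

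The NMNAT enzymes differ in where they are thought to act, NMNAT1 in the nucleus, NMNAT2 in the cytosol and at the Golgi, and NMNAT3 in mitochondria. Per kilobase of counted exon, NMNAT1 made up 91.4 and 92.5% of the summed NMNAT RNA level in siControl and 86.7 and 85.7% in siTARG1. NMNAT1 itself was at 39.1 and 35.3 CPM in siControl and at 32.0 and 32.8 CPM in siTARG1. Its siTARG1 libraries were both the lower ones, but the log2 fold change of -0.20 (SE 0.08, 95% interval -0.38 to -0.03) did not pass after adjustment (edgeR adjusted p = 0.053). Without siControl replicate 2 it passed (-0.27, adjusted p = 0.047), the lowest adjusted p over its alternatives, which reached 0.78. Annotated exons of another gene on the same strand share 436 bases with NMNAT1, and 5 processed pseudogenes carry its name, so its counts are uncertain to that extent.

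NMNAT2 was at 1.23 and 1.37 CPM (49 and 42 counts) in siControl and at 2.06 and 2.01 CPM (87 and 84 counts) in siTARG1. The groups did not overlap, and the log2 fold change was 0.65 (SE 0.24, 95% interval 0.14 to 1.17, edgeR adjusted p = 0.038). Only 5 and 7 of the siControl counts and 12 and 19 of the siTARG1 counts fell on its coding sequence. NMNAT3 was at 1.18 and 0.81 CPM (47 and 25 counts) in siControl and at 1.47 and 1.71 CPM (62 and 72 counts) in siTARG1. Its siTARG1 libraries were again both higher, with a log2 fold change of 0.65 (SE 0.23, 95% interval 0.15 to 1.14, edgeR adjusted p = 0.033). The share of the summed NMNAT level rose from 1.92 and 2.40% to 3.72 and 3.50% for NMNAT2 and from 6.67 and 5.13% to 9.61 and 10.8% for NMNAT3, in untested values. Both calls were fragile: NMNAT2 lost its call in 7 of 14 alternatives, including leaving out any 1 of the 4 siRNA libraries (log2 0.58 to 0.73), coding-sequence counts (1.12) and RPKM (0.41 and 0.15 with pseudocounts of 0.1 and 0.5), and its adjusted p ranged from 0.018 to 0.34. NMNAT3 lost its call in 6 of 14, among them DESeq2 (log2 0.66, adjusted p = 0.058) and leaving out siControl replicate 2 (0.44, adjusted p = 0.21) or siTARG1 replicate 2 (0.52, adjusted p = 0.15), with an adjusted p from 0.020 to 0.21 over all. Its log2 value ran from 0.31 on RPKM with a pseudocount of 0.5 to 0.97 without siControl replicate 1. Genes on the opposite strand share 481 annotated exon bases with NMNAT2 and 184 with NMNAT3.

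NAPRT, nicotinic acid phosphoribosyltransferase, starts the Preiss-Handler route. NAPRT was at 19.5 and 18.3 CPM in siControl and at 16.7 and 12.8 CPM in siTARG1. Both siTARG1 libraries were below both siControl libraries, and siTARG1 replicate 2 lay furthest down. The log2 fold change was -0.36 (SE 0.11, 95% interval -0.60 to -0.11, edgeR adjusted p = 0.019). That call was lost without siControl replicate 1 (-0.30, adjusted p = 0.11) and without siTARG1 replicate 2 (-0.18, adjusted p = 0.17), while the change was -0.56 without siTARG1 replicate 1, and its adjusted p ran from 0.00045 to 0.43 over 14 alternatives. The tables counted 2050 exon bases for NAPRT and only 2 in its 3′ UTR, and its exons share 532 bases with a gene on the opposite strand, so strand use in counting, which is not given in the sources used here, bears on its level.

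NADSYN1, NAD synthetase 1, amidates the deamido form of NAD in the last step of both the Preiss-Handler and the de novo routes. It was at 41.4 and 35.3 CPM in siControl and at 38.6 and 33.1 CPM in siTARG1. These ranges overlapped, with a log2 fold change of -0.10 (95% interval -0.30 to 0.11, edgeR adjusted p = 0.42).

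QPRT, quinolinate phosphoribosyltransferase, joins the de novo route from tryptophan to the NMNAT step. QPRT had the highest level per kilobase of the 10 enzymes in every group, at 148 CPM per kilobase in siControl and 134 in siTARG1. In CPM it was at 266 and 259 in siControl and at 250 and 225 in siTARG1. The siTARG1 libraries were both lower, by a log2 fold change of -0.14 (SE 0.07, 95% interval -0.30 to 0.01) that did not pass (edgeR adjusted p = 0.11). Without siTARG1 replicate 1 it passed (-0.22, adjusted p = 0.028), the lowest adjusted p over its alternatives, which reached 0.90. The tables counted only 400 bases of its coding sequence beside 1288 of its 3′ UTR.

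NADK is the cytosolic NAD kinase, encoded at chr1:1682671-1711896 (GRCh37, minus strand). NADK was at 153 and 142 CPM in siControl and at 206 and 179 CPM in siTARG1. Both siTARG1 libraries were above both siControl libraries, with a log2 fold change of 0.38 (SE 0.08, 95% interval 0.22 to 0.55, edgeR adjusted p = 0.00092). NADK2, the mitochondrial NAD kinase, is encoded at chr5:36192691-36242381 (GRCh37, minus strand). It was at 28.3 and 31.8 CPM in siControl and at 43.8 and 48.7 CPM in siTARG1. Its groups were further apart than those of NADK in proportion, with a log2 fold change of 0.62 (SE 0.09, 95% interval 0.44 to 0.81, edgeR adjusted p = 3.9e-05). Both kinases kept their calls in 14 of 14 alternatives, at 0.28 to 0.49 for NADK and 0.54 to 0.72 for NADK2. For NADK the change was the same on its coding sequence and 3′ UTR (log2 0.38 and 0.40), and for NADK2 it was 0.67 and 0.53. SKP2, a gene on the opposite strand, shares 365 annotated exon bases with NADK2, and the tables counted 0 bases of the NADK2 5′ UTR.

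**Figure D3:**
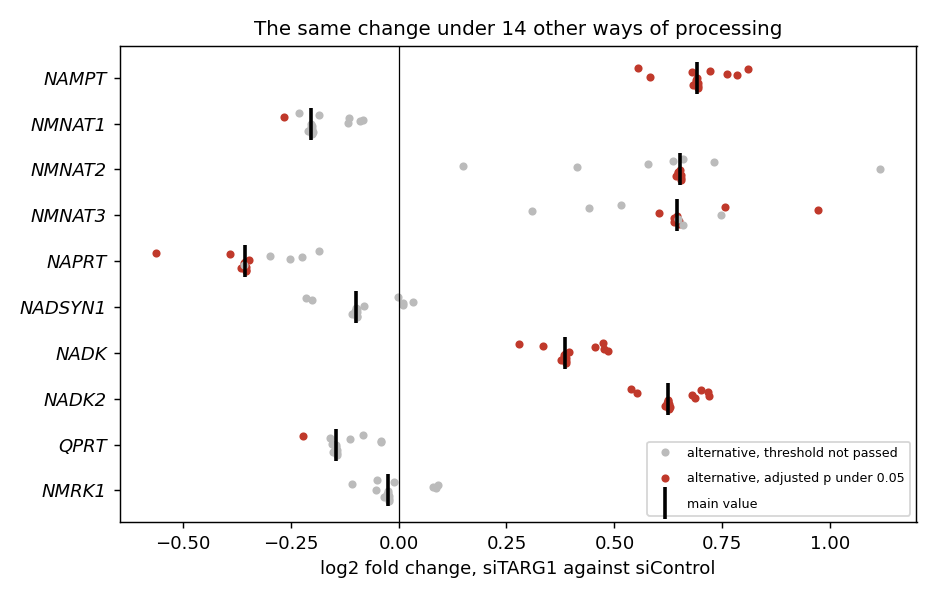
For each enzyme the black bar is the log2 fold change of siTARG1 against siControl, and the dots are the same value under 14 other settings (another test, normalisation, filter, set of libraries, region or unit, or 1 library left out), red where the adjusted p was under 0.05 and grey where it was not. NAMPT, NADK and NADK2 have red dots only, and NMNAT1, NMNAT2, NMNAT3, NAPRT and QPRT have both colours.

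The promoters of the 3 enzymes whose calls held in 14 of 14 alternatives were read for a feature the choice of genes had not used, and this search was added after their values were seen. The letters searched were the GC box, the core of the element that Sp1-family factors bind, as GGGCGG or, on the other strand, CCGCCC, in the 250 bases before the annotated start in the RefSeq promoter table (GRCh38.p14, another build than that of the count tables). A promoter was matched for 8 of the 10 enzymes. For each, only the window whose start lay nearest to that of a counted transcript was searched. Any further window of the same gene was not read. NAMPT held 3 boxes, NADK 4 and NADK2 3. The enzymes that did not pass held 5 boxes for NADSYN1, 1 for NMNAT1 and 0 for QPRT, and among the less stable calls NMNAT3 held 6 and NMNAT2 held 0. Of 35116 windows in the table, 42.6% held at least 1 box and 13.9% held 3 or more, but the windows of NAMPT, NADK and NADK2 were also richer in G and C (77.2, 75.2 and 64.4%) than the median window (58.0%), and windows of like GC content were not compared. The box nearest to the start is shown in capitals within 30 bases of the gene's own strand for these 3 genes, from chr7:106285030-106285059 (NAMPT, minus strand), chr1:1778818-1778847 (NADK, minus strand) and chr5:36242019-36242048 (NADK2, minus strand).
NAMPT: cggctcccgggcCCGCCCtcctctgacccc
NADK: gcggtgagttggGGGCGGgacgccgggctg
NADK2: tccatttcttccCCGCCCacctttctcccg
The NAMPT and NADK2 boxes read as the reverse complement and the NADK box as GGGCGG, and they begin 64, 111 and 19 bases before the start, respectively. These matches describe letters in the windows and do not show binding.

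In RACK1-Mut against RACK1-WT the 10 enzymes differed by log2 values from -0.25 to 0.17, with a median of -0.00 beside 0.00 over all genes. By edgeR 0 of the 10 passed, 0 of the 10 had an unadjusted p under 0.05 (4.90% of all genes did), and DESeq2 also called 0 of the 10. Libraries of RACK1-WT and RACK1-Mut did not overlap for 5 of the 10, beside 37.8% of all genes. NADK2 came nearest to the threshold, at 39.1 and 37.8 CPM in RACK1-WT and 44.2 and 42.1 CPM in RACK1-Mut. Its RACK1-Mut libraries were both higher, by a log2 fold change of 0.17 (95% interval -0.01 to 0.35), which did not pass (edgeR adjusted p = 0.998). NAPRT was at 25.8 and 27.6 CPM in RACK1-WT and 23.4 and 23.5 CPM in RACK1-Mut, a log2 fold change of -0.19 (95% interval -0.42 to 0.04). NMNAT2 had the widest spread, at 11.2 and 9.20 CPM in RACK1-WT and 7.18 and 9.92 CPM in RACK1-Mut, so that the groups overlapped and the interval ran from -0.57 to 0.08. NAMPT was at 152 and 145 CPM in RACK1-WT and at 139 CPM in both RACK1-Mut libraries. Its log2 fold change of -0.10 had an interval of -0.27 to 0.07, which leaves out a rise of the size seen with siTARG1. The interval for NADK was -0.18 to 0.16, for QPRT -0.14 to 0.16 and for NMRK1 -0.19 to 0.20.

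Whether the effects of siTARG1 and of RACK1-Mut differed was tested in the same fit, since the experiments share no library. The difference, siTARG1 over siControl minus RACK1-Mut over RACK1-WT, passed for 4 of the 10 enzymes, all higher, beside 32.4% of all genes (16.1% higher and 16.3% lower). It was 0.79 for NAMPT (SE 0.11, edgeR adjusted p = 0.00012), 0.90 for NMNAT2 (SE 0.28, 0.026), 0.46 for NADK2 (SE 0.12, 0.0097) and 0.39 for NADK (SE 0.11, 0.013). For NMNAT3 the difference of 0.57 (95% interval -0.02 to 1.16) did not pass (edgeR adjusted p = 0.13), and for NAPRT it was -0.17 (95% interval -0.50 to 0.17). NAMPT kept this call in 17 of 17 alternatives, whereas NMNAT2 lost it in 6, NADK in 4 and NADK2 in 2. On RPKM all of NMNAT2, NADK and NADK2 lost it, and NMNAT2 also lost it on coding-sequence counts. Losses with 1 library left out came without siControl replicate 1 (0.82), RACK1-WT replicate 1 (0.76) or RACK1-Mut replicate 1 (0.69) for NMNAT2, and siControl replicate 2 (0.34) or RACK1-Mut replicate 2 (0.37) for NADK. NAPRT passed without siTARG1 replicate 1 (-0.37). On the deposited RPKM values NAMPT was the only enzyme of the 10 past the threshold in this contrast.

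The level of each enzyme in the 4 groups was also described across the experiments, without a test, because line, vectors, Dox and transfection differ together and cannot be told apart. The 4 RACK1 libraries did not overlap the 4 siRNA libraries for 6 of the 10 enzymes, beside 53.4% of all genes, and the means were over 4-fold apart for 2, beside 5.79%. NMNAT2 ranged from 7.18 to 11.2 CPM in the RACK1 libraries and from 1.23 to 2.06 CPM in the siRNA libraries, a ratio of means of 5.62. NMNAT3 ranged from 4.90 to 5.79 CPM and from 0.81 to 1.71 CPM, respectively, a ratio of 4.23. The RNA of both minor NMNAT enzymes was thus several-fold higher in the RACK1 lines, and that of NMNAT1, at 31.98 to 39.1 CPM in all 8 libraries, was not. Per kilobase, NMNAT1 made up 66.2% ± 0.43 (SD, n = 2) of the summed NMNAT level in RACK1-WT and 65.5% ± 3.47 (SD, n = 2) in RACK1-Mut, with NMNAT3 at 22.1% ± 2.19 and 24.2% ± 1.11. NAPRT and NMRK1 were higher in the RACK1 libraries, by 1.49- and 1.35-fold. QPRT and NADK were higher in the siRNA libraries, by 1.67- and 1.55-fold, whereas NAMPT, NMNAT1, NADSYN1 and NADK2 overlapped.

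Ordered by group mean, NAMPT ran from siTARG1 through RACK1-WT and RACK1-Mut to siControl, and each neighbouring pair of groups was apart. NADK ran from siTARG1 to siControl to RACK1-WT to RACK1-Mut, with the RACK1 groups overlapping. For NADK2 the order was siTARG1, RACK1-Mut, RACK1-WT and siControl, and the first pair overlapped. NMNAT2 ran from RACK1-WT to RACK1-Mut to siTARG1 to siControl, and NMNAT3 from RACK1-Mut to RACK1-WT to siTARG1 to siControl, with the RACK1 groups overlapping for both. NADSYN1 had overlap between each neighbouring pair and the smallest spread of group means, from 34.9 to 38.3 CPM. The ratio of NADK to NADK2 per kilobase was 2.97 and 2.44 in siControl, 2.58 and 2.02 in siTARG1, 1.55 and 1.59 in RACK1-WT and 1.37 and 1.41 in RACK1-Mut. The siRNA groups overlapped in this ratio and both lay above the RACK1 groups. Among the enzymes, QPRT ranked highest per kilobase in all 4 groups (84.2 to 148 CPM per kilobase), NADK and NAMPT came next in every group, and NMNAT2 (0.23 to 1.80) ranked lowest after NMNAT3 (0.64 to 3.59).

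Other genes of NAD metabolism were taken from 3 lists set by role. In the kynurenine pathway, which turns tryptophan into the substrate of QPRT, 6 of 8 genes were tested, of which 3 rose and 0 fell with siTARG1, beside 23.5% higher and 23.1% lower of all genes. TDO2 and IDO1, the dioxygenases that open the pathway, were at 0.28 and 0.13 CPM against 0.52 and 0.45 CPM for TDO2 (siControl against siTARG1) and at 2.31 and 2.29 against 4.80 and 4.72 CPM for IDO1. IDO1 rose by a log2 value of 1.05 (SE 0.15, edgeR adjusted p = 7.0e-05), and TDO2, from 4 to 22 counts, by 1.19 (SE 0.41, 0.030). AFMID, the formamidase of the next step, was at 24.4 and 26.0 CPM in siControl and at 39.8 and 43.3 CPM in siTARG1, a log2 change of 0.72 (SE 0.08, 9.2e-06). KMO and KYNU did not pass, at log2 values of 0.37 (95% interval -0.85 to 1.59) and 0.30 (-0.28 to 0.88). HAAO had at most 1 count in the siRNA libraries, so its change cannot be given, and ACMSD had 0 counts in all 8 libraries (3 counts would be 0.0697 to 0.0981 CPM). The median log2 value was 0.55 with HAAO at its fitted value and 0.72 without it, beside 0.01 over all genes. IDO1 and AFMID kept their calls in 14 of 14 alternatives and TDO2 in 8 of 13, being lost with DESeq2 (1.23, adjusted p = 0.11), on coding-sequence counts (1.23, 0.053) and without siControl replicate 2 (0.82, edgeR adjusted p = 0.20), siTARG1 replicate 1 (1.09, 0.11) or siTARG1 replicate 2 (1.27, 0.056), with an adjusted p from 0.0062 to 0.20 over its alternatives. Its log2 value was 1.88 without siControl replicate 1, and 0.60 and 0.19 on RPKM with pseudocounts of 0.1 and 0.5.

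Of the genes that handle precursors or keep NAD(P) in repair, 11 of 14 were tested, 2 rose and 3 fell with siTARG1 (23.5% and 23.1% of all genes), with a median log2 value of -0.05. NT5E (CD73), an ecto-enzyme that can release nicotinamide riboside outside the cell, was at 0.28 and 0.59 CPM in siControl and at 1.02 and 1.51 CPM in siTARG1, a log2 change of 1.60 (SE 0.34, edgeR adjusted p = 0.0016) that was 1.11 without siControl replicate 1 or up to 2.19 without replicate 2. SLC12A8, described as a carrier of nicotinamide mononucleotide, rose by 0.37 (SE 0.09, 0.0037). NNT, the mitochondrial transhydrogenase that makes NADPH from NADH, was at 116 and 118 CPM in siControl and at 82.2 and 83.8 CPM in siTARG1, a log2 change of -0.49 (SE 0.07, 4.6e-05). NAXE, an epimerase that repairs damaged NAD(P)H, and PNP, a purine nucleoside phosphorylase, fell by 0.26 (SE 0.07, 0.011) and 0.22 (SE 0.07, 0.017) on the log2 scale. Both of the last calls were lost without siControl replicate 1 or without siTARG1 replicate 2 (-0.22 and -0.19 for NAXE, -0.16 and -0.20 for PNP).

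Of 10 sirtuins and NAD glycohydrolases, which consume NAD, 2 rose and 1 fell with siTARG1, beside the same 23.5% and 23.1% of all genes, and the median log2 value was 0.10. None of the 3 lists is set apart from other genes by these counts. SIRT1, a nuclear deacetylase, was at 38.1 and 39.4 CPM in siControl and at 21.7 and 24.3 CPM in siTARG1, a log2 change of -0.75 (SE 0.08, edgeR adjusted p = 5.3e-06) that held in 14 of 14 alternatives. SARM1, an NAD glycohydrolase best known from axons, was at 2.11 and 2.24 CPM in siControl and at 3.24 and 3.52 CPM in siTARG1, a log2 change of 0.63 (SE 0.16, 0.0041). SIRT3, a mitochondrial deacetylase, rose by 0.36 (SE 0.12, 0.027), a call lost without siControl replicate 2 (0.24) or siTARG1 replicate 1 (0.28). In RACK1-Mut against RACK1-WT, 0 genes passed in each of the 3 lists. An unadjusted edgeR p under 0.05 was reached by 2 of 6 kynurenine genes, 2 of 11 precursor genes and 0 of 10 NAD consumers. Over all genes the share was 4.90%. These genes were IDO1 and HAAO, and NT5E and PNP, respectively, named here after their values were seen. HAAO had only 5 to 15 counts in the RACK1 libraries. The effects of siTARG1 and RACK1-Mut differed for 2 of 6 kynurenine genes, 3 of 11 precursor genes and 2 of 10 NAD consumers. Over all genes, 32.4% passed the edgeR threshold in this contrast, so these counts do not set the lists apart either. The genes past it were IDO1 (log2 1.55), AFMID (0.80), NT5E (1.97), NNT (-0.47), NAXE (-0.32), SIRT1 (-0.93) and SARM1 (0.75). NAXE lost this call in 8 of 17 alternatives, SARM1 in 4 and NNT in 2.

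**Figure D4:**
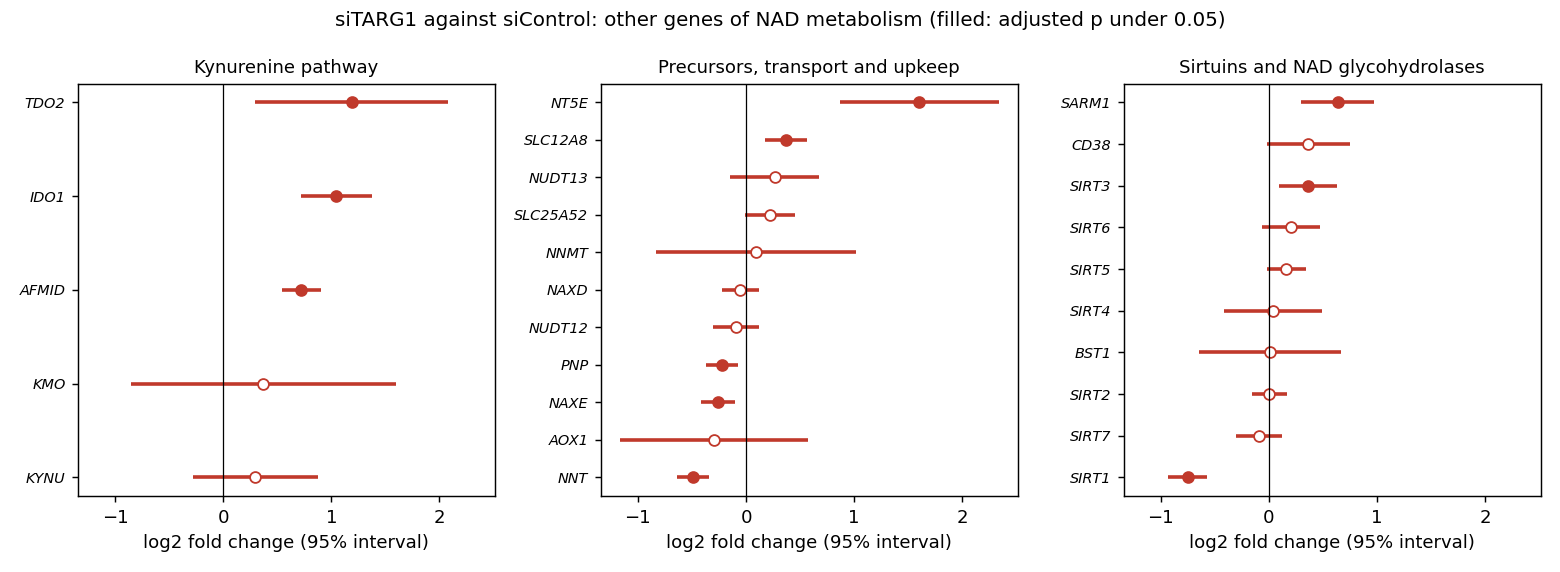
Points are log2 fold changes of siTARG1 against siControl with 95% intervals for the tested genes of the 3 lists, filled where the adjusted p was under 0.05, with HAAO left out for want of counts. IDO1, TDO2, AFMID and NT5E lie to the right at 0.72 to 1.60, and SIRT1 (-0.75) and NNT (-0.49) furthest to the left.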

How the data were processed

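RNA-seq libraries from OVCAR3 cells, 2 in each of 4 groups, were grouped by their labels. The ribosome profiling libraries of the study were not analysed here. The authors removed rRNA reads with Bowtie 1.1.2, aligned the rest to Gencode transcripts of GRCh37 with TopHat2 2.1.1 and used Plastid to count, for each gene, the alignments that were 25 to 51 bases long. The deposited values are estimated counts, not normalised and mostly not whole (37.8 to 41.6% of the exon values above 0 in a library were exactly whole), for exons, coding sequence and UTRs, and the authors' RPKM scale them by length and library. Replicates were not pooled.

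Gene symbols and GRCh37 coordinates came from Gencode annotation, and 94.7% of 36595 transcript names matched. Exon counts, rounded, were tested with edgeR 4.0.16 (quasi-likelihood, TMM, filterByExpr; limma 3.58.1, R 4.3.3) in 1 fit of all 8 libraries, with 4 residual degrees of freedom and Benjamini-Hochberg adjustment over the 14024 genes tested, threshold 0.05. The scripts were tested on simulated data. Far fewer genes changed there than were called with siTARG1, and more than were called in RACK1-Mut against RACK1-WT. Of 100 planted 1.3-fold changes, 45% were recovered for siTARG1 against siControl and 51% for RACK1-Mut against RACK1-WT. Changes of that size were thus often missed in the simulation. The share recovered depends on how many genes change, so it does not carry over as such to either comparison. Rows with no matched name held 1.15 to 1.27% of counts, and rows that join several genes 4.04 to 4.27%. With 971 or more counts per library for NAMPT, NADK and NADK2, the number of libraries limits precision, whereas NMNAT2 and NMNAT3, with as few as 42 and 25 counts, are limited by depth too.

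The members and gene lists were chosen with earlier results of these data known. All 10 enzymes are named in both comparisons, and of each list the genes past the threshold, at most 5 with the smallest adjusted p. OARD1 and RACK1 are named as label checks, and further genes after their values were seen. The alternatives were DESeq2 1.42.0, other normalisation, filters, libraries, regions and units, and leaving out each library.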

Additional observations from a re-analysis of the deposited data

How the results depend on the processing

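Each comparison was recomputed under other settings, 14 for either experiment and 17 for the difference of the effects. With siTARG1, NAMPT, NADK and NADK2 kept direction and call in 14 of 14. The 5 enzymes called higher became 4 with DESeq2, 4 with only the 4 libraries of the comparison, 3 on coding-sequence counts, 4 and 3 on RPKM (limma, pseudocounts 0.1 and 0.5) and 3 to 4 when 1 library was left out. The 1 called lower became 0 with only the 4 libraries of the comparison and 0 on RPKM with either pseudocount, and 0 to 2 when 1 library was left out. The genes called numbered 6537, against 5867 with DESeq2, 3557 and 3174 on RPKM and 5254 to 6195 with 1 library left out. On RPKM the median of all genes moved to 0.09. In RACK1-Mut against RACK1-WT the 1 gene called became 18 with DESeq2, 15 with no filter, 0 with at least 10 counts in every library, 49 with only its 4 libraries, 2 on coding-sequence counts, 7 and 0 on RPKM, and 0 to 1 with 1 library left out, and the enzymes called stayed at 0 throughout. The difference passed for 4550 genes, for 1684 and 1432 on RPKM and for 3353 to 4743 with 1 library left out. It passed upward for 4 enzymes, for 3 on coding-sequence counts, for 1 on RPKM with either pseudocount and for 3 to 4 with 1 library left out, and downward for 0 to 1. Of the other genes of NAD metabolism called with siTARG1, recomputed in settings added after their values were seen, SLC12A8 (0.46 and 0.41), NNT (-0.38 and -0.36), NAXE (-0.15 and -0.15), PNP (-0.11 and -0.11), SIRT3 (0.45 and 0.37) and SARM1 (0.39 and 0.13) lost their calls on RPKM, where IDO1, NT5E and TDO2 kept them at values as low as 0.63, 0.25 and 0.19.

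With the replicate number as a block, 6559 genes were called with siTARG1, 3 in RACK1-Mut against RACK1-WT and 4588 for the difference, and no call of the 10 enzymes changed. Deviations of same-numbered libraries correlated at 0.60 across 10879 genes between siControl and siTARG1 and at 0.06 between RACK1-WT and RACK1-Mut. With 2 pairs per comparison and no label that ties the numbers to a shared culture, the libraries were not treated as paired.

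Values near 0 changed sign in these cases, and the cause was not tested. With siTARG1, NADSYN1 was 0.0095 and 0.0092 and NMRK1 0.088 and 0.081 on RPKM (pseudocounts 0.1 and 0.5), and leaving out 1 library gave -0.21 to 0.035 for NADSYN1 and -0.11 to 0.091 for NMRK1, both above 0 without siControl replicate 1. In RACK1-Mut against RACK1-WT, NMRK1 was -0.0020 with only the 4 libraries and NADK 0.029 and 0.028 on RPKM. Leaving out 1 library there gave -0.034 to 0.20 for NMNAT3, -0.024 to 0.0054 for NADK, -0.026 to 0.051 for QPRT and -0.011 to 0.012 for NMRK1. For the difference, NMNAT1 was 0.034 on coding-sequence counts and NMRK1 0.048 and 0.043 on RPKM, and leaving out 1 library gave -0.37 to 0.0047 for NAPRT and -0.11 to 0.089 for NMRK1.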

Other observations

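The rise of NAMPT with siTARG1 was larger on its 3′ UTR than on its coding sequence, a comparison made after the values were seen and not tested over samples. On the log2 scale of group means it was 0.96 on the 3′ UTR (32.3 CPM in siControl and 62.8 CPM in siTARG1) and 0.56 on the coding sequence (79.8 and 118 CPM). The 3′ UTR held 27.9 and 29.8% of the counts on both regions in siControl and 32.4 and 36.7% in siTARG1, so the siTARG1 libraries were both higher. In RACK1-WT (35.4 and 33.3%) and RACK1-Mut (35.8 and 36.1%) the share was above that of siControl. Of 7687 genes with at least 100 counts on both regions in every library, 1.13% had a larger difference between the regions than the 0.39 of NAMPT, and the median was 0.01.

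For NMNAT2 most counts lay on its 3′ UTR, the longer region, with 44 and 35 counts there against 5 and 7 on the coding sequence in siControl, over 4404 counted bases of 3′ UTR and 924 of coding sequence. In RACK1-WT the numbers were 270 and 246 against 80 and 75.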
